A study of Mus musculus with 15 samples.

Results

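Stromal and cancer cells of a pancreatic tumour exchange signals through interleukins, and 10 genes of this kind were followed here: Il1a, Il1b, Il1rn, Il18 and Il33 of the interleukin-1 family, Il6, Il11 and Lif of the interleukin-6 family, and Il34 and Csf1, the ligands of the CSF-1 receptor. They were taken by name, as every probe whose gene name in the scanner files was one of the 10. This gave 18 of 56605 probes, for 10 of 37008 gene names. Il1b and Csf1 had 3 probes each, Il1rn, Il6, Il33 and Il34 had 2, and Il1a, Il11, Il18 and Lif had 1. On the mm9 build of the files, the brightest probes of the interleukin-1 family lie at chr2:129125994-129126053 (Il1a, − strand), chr2:129195465-129195524 (Il1b, − strand), chr2:24206125-24206184 (Il1rn, + strand), chr9:50389886-50389942 (Il18, + strand) and chr19:30035101-30035160 (Il33, + strand). Those of the gp130 cytokines lie at chr5:30346367-30346426 (Il6, + strand), chr7:4724847-4724906 (Il11, − strand) and chr11:4172032-4172091 (Lif, + strand). Those of the CSF1R ligands lie at chr8:113265835-113265894 (Il34, − strand) and chr3:107544333-107544392 (Csf1, − strand).

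Expression was measured on 1-colour mouse arrays in 5 groups of 3 samples. PSC WT were pancreatic stellate cells, the fibroblast-like cells of the pancreas, from wild-type mice, and PSC HT were the same cells from heterozygous mice. Both had been cultured for 2 weeks, by which time they were activated. The cancer control, cancer WT medium and cancer HT medium groups were pancreatic cancer cells kept for 24 h in control medium, in medium conditioned by PSC WT or in medium conditioned by PSC HT. The labels used here name neither the heterozygous locus nor the cancer cell line. Nothing in them ties a replicate to its own mouse or culture, and the p-values therefore cover the scatter among these samples alone, part or all of which may be technical. Levels are log2 signals relative to the 75th percentile of the array, so that 0 is the signal of that percentile, and they were not compared between probes. Each difference is a log2 difference ± SE between groups of n = 3 arrays, and p-values are from limma, adjusted over all genes tested. A gene was called when this adjusted p was under 0.05, and its brightest probe stood for it.

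The interleukin-1 family works through paired receptor chains. IL-1α and IL-1β bind the receptor encoded by Il1r1, and the product of Il1rn, the IL-1 receptor antagonist, occupies the same receptor without signalling. IL-1β and IL-18 are made as inactive precursors that caspase-1 cleaves inside inflammasomes, whereas IL-33 is stored in the nucleus and acts as an alarm signal on the receptor chain encoded by Il1rl1 when cells are damaged. IL-6, IL-11 and LIF share the receptor chain gp130 and act through JAK kinases and STAT3, and activated stellate cells and other fibroblasts of pancreatic tumours are known sources of them. CSF-1 and IL-34 both bind CSF1R, the receptor on which macrophages depend.

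The upstream sequences of the gp130 cytokines and of Il18 and Il33, which were lower in PSC HT, are shown because much of what follows is about these genes. They were chosen with the motif matches known, so a match that several of them hold is no evidence about the group. RefSeq (GRCm38.p6) windows of the 250 bases before a transcription start were found for 9 of the 10 members, 13 windows in all. They were searched on both strands for NF-kappaB (its consensus of 10 letters), AP-1 (TGANTCA), STAT (TTCNNNGAA) and C/EBP (TTGCNNAA) letters. They were also searched for the TATA letters (TATAAA), and matches are in capitals. The Il6 window lies on the + strand at chr5:30012864-30013113, that of Il11 on the − strand at chr7:4778142-4778391 and that of Lif on the + strand at chr11:4257318-4257567.
Il6: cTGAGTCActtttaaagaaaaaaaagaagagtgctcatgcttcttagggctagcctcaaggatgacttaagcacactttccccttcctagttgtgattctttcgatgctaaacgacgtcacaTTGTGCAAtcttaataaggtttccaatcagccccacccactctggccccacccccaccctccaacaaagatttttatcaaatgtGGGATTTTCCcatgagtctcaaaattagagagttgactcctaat
Il11: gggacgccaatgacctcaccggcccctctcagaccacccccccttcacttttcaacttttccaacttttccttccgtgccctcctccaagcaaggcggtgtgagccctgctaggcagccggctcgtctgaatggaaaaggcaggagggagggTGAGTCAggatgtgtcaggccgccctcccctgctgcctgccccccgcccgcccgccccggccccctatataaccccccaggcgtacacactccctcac
Lif: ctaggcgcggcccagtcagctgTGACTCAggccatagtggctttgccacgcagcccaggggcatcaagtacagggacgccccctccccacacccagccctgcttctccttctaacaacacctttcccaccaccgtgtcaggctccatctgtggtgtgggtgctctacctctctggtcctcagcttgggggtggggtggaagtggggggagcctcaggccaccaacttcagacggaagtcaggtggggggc

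Each of these 3 windows holds the AP-1 letters, at 249 bases before the start in Il6, 98 in Il11 and 228 in Lif (distances are to the first base of the match). Il6 also holds an NF-kappaB match at 44 bases and a C/EBP match between them. Among all 32851 windows of the same length, 6.75% hold the AP-1 letters, 5% NF-kappaB, 9.56% C/EBP, 7.02% STAT and 12.4% TATA. The AP-1 letters were also found in windows of Il1a and Il1rn, and the NF-kappaB consensus in that of Csf1. No window of a member holds the STAT letters. A match is a description of letters and not a binding site, and an Il11 window at another start, further upstream at chr7:4782858-4783107 on the − strand, holds none of the 5 motifs.

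The Il18 window is at chr9:50554450-50554699 on the + strand, and Il33 has 2 starts on the + strand, at chr19:29924863-29925112 and chr19:29945540-29945789. None of these 3 windows holds the AP-1, NF-kappaB or STAT letters. A TATA match lies at 175 bases in Il18 (on the opposite strand), at 203 bases at one Il33 start and at 29 bases at the other, which also has a C/EBP match at 85 bases.
Il18: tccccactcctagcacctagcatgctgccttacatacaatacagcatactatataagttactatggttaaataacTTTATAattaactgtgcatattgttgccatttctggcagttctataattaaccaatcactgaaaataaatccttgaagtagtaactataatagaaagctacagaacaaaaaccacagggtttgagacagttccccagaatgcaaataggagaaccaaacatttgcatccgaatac
Il33 upstream start: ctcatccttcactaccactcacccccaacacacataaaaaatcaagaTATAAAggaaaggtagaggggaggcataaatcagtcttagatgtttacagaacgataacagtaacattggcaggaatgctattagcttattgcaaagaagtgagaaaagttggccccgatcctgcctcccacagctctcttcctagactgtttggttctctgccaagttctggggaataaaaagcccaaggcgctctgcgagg
Il33 downstream start: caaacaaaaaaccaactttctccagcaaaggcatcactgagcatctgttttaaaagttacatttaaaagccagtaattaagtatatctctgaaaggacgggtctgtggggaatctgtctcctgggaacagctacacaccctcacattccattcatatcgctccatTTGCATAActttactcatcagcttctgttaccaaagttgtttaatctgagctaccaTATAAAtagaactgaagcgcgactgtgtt

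Most of these cytokines were read in both stellate cells and cancer cells, at different levels. Il1rn, Il11, Il18, Il33, Il34, Lif and Csf1 were well above background on all arrays of PSC WT and of cancer control, and Il6 in the PSC only. Il6, Csf1, Il11 and Lif were higher in PSC WT than in cancer control, and Il1rn, Il33 and Il34 were higher in the cancer cells. Between the PSC genotypes, Il1rn, Il6 and Il11 were higher and Il18 and Il33 lower in PSC HT. In the cancer cells, medium of either PSC genotype raised Il34 and lowered Il18, and Lif passed the threshold with PSC HT medium.

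These calls have to be read against how often any gene was called, and so do the calls in the gene lists below. Between PSC HT and PSC WT, 3 of the 8 members tested were called higher and 2 lower, where 2.95% of 20886 genes were higher and 4.78% lower. For cancer WT medium against cancer control 1 of 8 was higher and 1 lower, where 2.8% and 3.15% of 19686 genes were. For cancer HT medium against cancer control 2 of 8 were higher and 1 lower, where 2.97% and 2.5% of genes were. These comparisons share the control arrays. Between PSC WT and cancer control 4 of the 9 members tested were higher and 3 lower, but there 36.1% of 21924 genes were higher and 35.2% lower, so most genes differed. Of those 4 members, Il6 passed the filter through PSC WT alone. With arrays scaled to the median instead, 5334 genes were higher and 10435 lower, against 7924 and 7726 with the 75th percentile. This scaling moved the median difference of all genes by -0.39. Between the 2 media 0 of 19686 genes and 0 of 8 members were called (0%), with 960 genes and 2 members at an unadjusted p under 0.05.

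**Figure D1:**
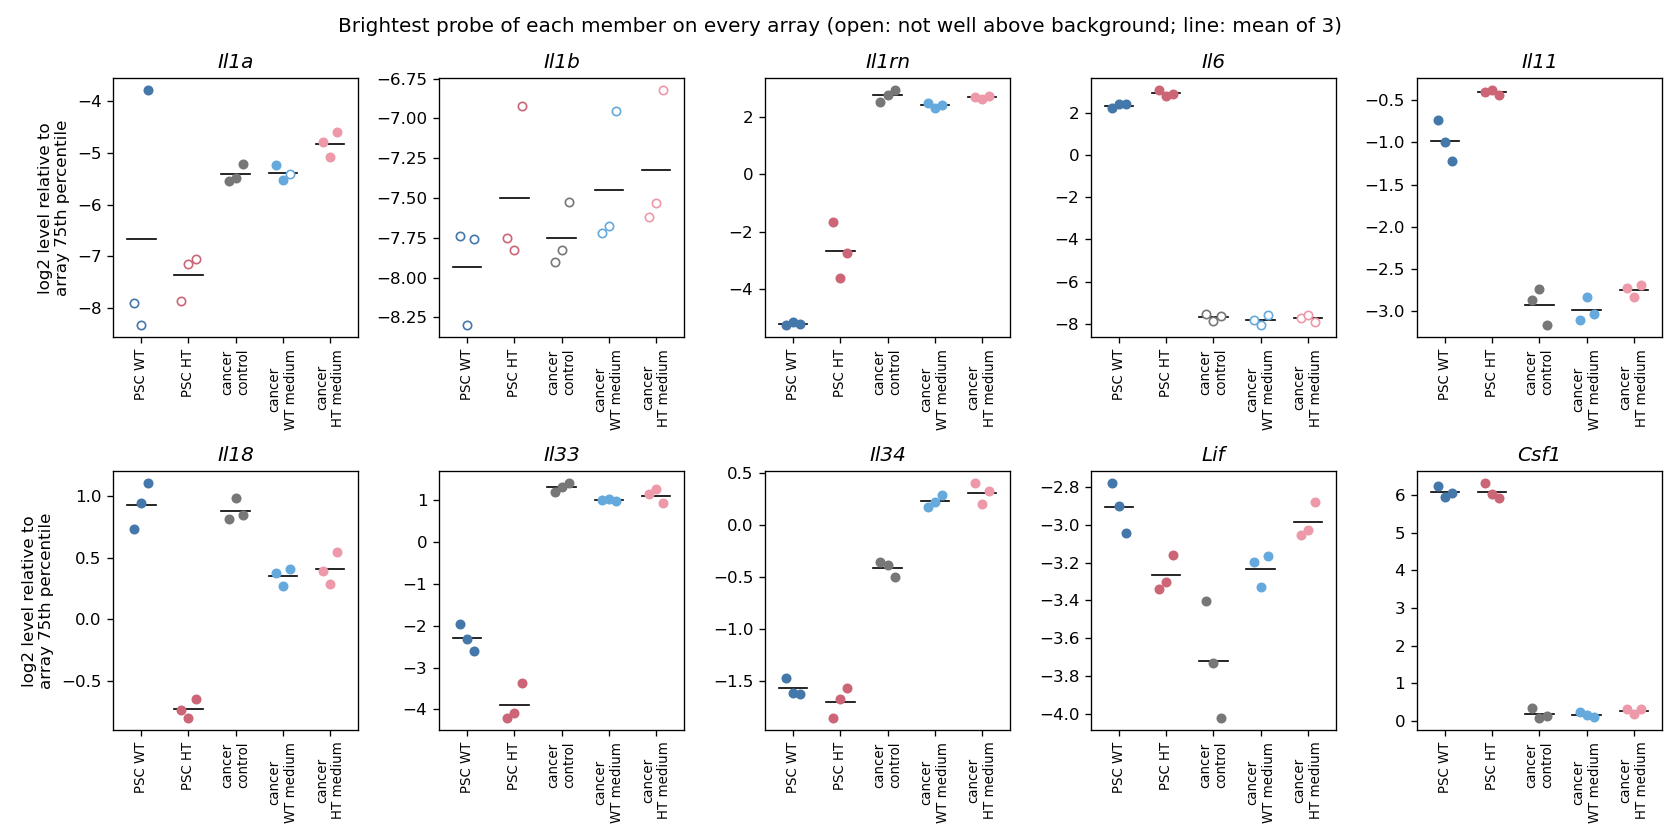
Log2 level relative to the array's 75th percentile (vertical axis) of the brightest probe of each of the 10 members on the 3 arrays of each group. Filled points are well above background, open points are not, and lines are means of 3. Il6 and Csf1 are high in both PSC groups, Il1rn and Il33 in the 3 cancer groups, and Il1b is open on all 15 arrays.

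Several properties of the PSC arrays bear on their comparison. All 13 stellate cell and fibroblast markers were well above background in both genotypes, with a summed level (the sum of linear levels, where 1 is the 75th percentile) of 1252 to 1733 in WT and 1502 to 1583 in HT. Macrophage markers summed to 20.1 to 33.3 in PSC WT and 77.0 to 190.4 in PSC HT, and 16 of 19 tested were higher (3 of 21 without PSC HT 3). Their median difference was 2.76, and 2.99 without PSC HT 3, so the calls fell and the difference did not. Of 21 macrophage markers, only Fcgr1 was on no WT array above background, and on the HT arrays 0 of 21 were missing. Mesothelial markers summed to 39.7 to 49.5 in WT and 10.73 to 17.5 in HT (6 of 7 lower), and endothelial markers to 4.40 to 4.65 and 2.21 to 2.67 (5 of 6 lower), with Erg, Tek and Tie1 not above background in either. In bulk RNA, fewer cells of a type and less RNA per cell cannot be told apart. The library PSC HT 3 stood apart: Cdh1, the E-cadherin of epithelial cells, read -2.45 there against -8.22 to -7.61 on the other 5 PSC arrays and 4.39 to 4.49 in cancer control. Its epithelial markers summed to 23.3 against 6.36 to 14.7 on the other PSC arrays, while Epcam, Ehf and Elf3 stayed below background. Results for the PSC genotypes are therefore given with and without PSC HT 3, for genes other than the members as an alternative chosen after seeing the data. The part of these other markers in the members' differences was not tested.

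Il18, which encodes the precursor of interleukin-18, had the lowest adjusted p of the members between the PSC genotypes. Its PSC WT arrays read 0.73, 0.94 and 1.10 and PSC HT arrays -0.73, -0.80 and -0.64. The groups did not overlap, and Il18 fell by 1.65 ± 0.11 in PSC HT (adjusted p = 0.001), a 3.13-fold lower level. Without PSC HT 3 the difference was -1.69 (adjusted p = 0.00496), within slide 1 -1.42 and within slide 2 -1.82. Slide 1 held PSC WT 1, PSC HT 1 and PSC HT 3, and slide 2 the other PSC arrays. Each within-slide value between the genotypes therefore rests on 1 array of 1 genotype. The fall was called on leaving out any 1 of the 6 arrays (adjusted p = 0.00496 to 0.00994). Mesothelial and endothelial markers were lower on the same 3 HT arrays, and their part in the fall of Il18 and Il33 was not tested.

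Il18 also fell in the cancer cells after either conditioned medium. Cancer control arrays read 0.81, 0.98 and 0.84, cancer WT medium arrays 0.37, 0.27 and 0.41, and cancer HT medium arrays 0.39, 0.29 and 0.54. Every array in conditioned medium lay below every control array, by -0.53 ± 0.09 with WT medium (adjusted p = 0.00941, 1.44-fold lower) and -0.47 ± 0.09 with HT medium (adjusted p = 0.0182, 1.39-fold lower). Within slide 1 the differences were -0.45 and -0.36, and within slide 2 -0.65 and -0.70. The call with HT medium was lost without cancer control 2 (-0.42, adjusted p = 0.0607), cancer HT medium 1 (-0.46, adjusted p = 0.072) or cancer HT medium 2 (-0.41, adjusted p = 0.058). Scaling to the median ended both calls (-0.48, adjusted p = 0.0678, and -0.41, adjusted p = 0.121). Between PSC WT and cancer control the probe gave nearly the same level, 0.92 ± 0.18 and 0.88 ± 0.09 (SD), a difference of 0.05 with a 95% interval of -0.24 to 0.33 (adjusted p = 0.745). Its sign turned to -0.34 with median scaling.

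The genes of both chains of the IL-18 receptor moved the opposite way to Il18 in the cancer cells. Il18r1, the chain that binds IL-18, read -0.76, -0.89 and -1.03 in control, 0.00, 0.04 and 0.07 in WT medium and -0.14, -0.11 and -0.09 in HT medium. It rose by 0.93 ± 0.07 (adjusted p = 0.000375) and 0.78 ± 0.07 (adjusted p = 0.00119). Il18rap, the signalling chain, rose by 0.93 ± 0.12 (adjusted p = 0.00404) and 0.74 ± 0.12 (adjusted p = 0.0136), from -3.28 in control. Il18bp, the secreted protein that neutralises IL-18, had -0.02 ± 0.23 and -0.05 ± 0.23 (adjusted p = 0.974 and 0.939). In the PSC, Il18r1 was above background on 1 of 3 WT and 0 of 3 HT arrays and Il18rap on none.

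**Figure D2:**
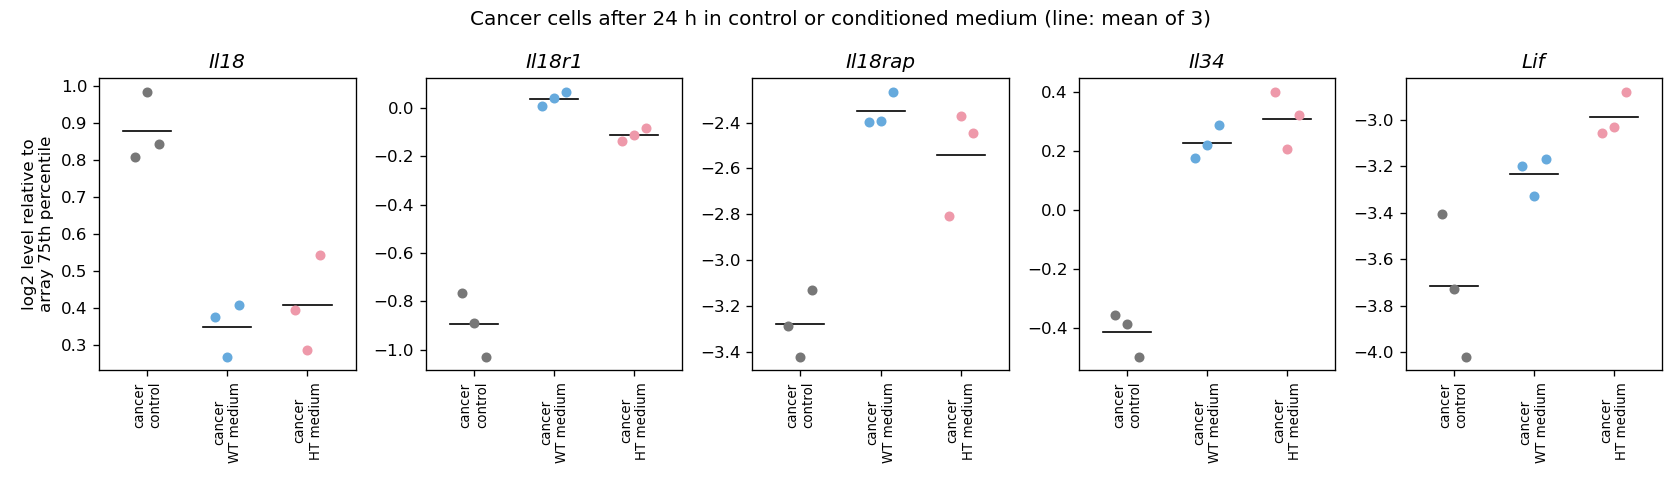
Log2 level relative to the array's 75th percentile (vertical axis) of Il18, both IL-18 receptor chains, Il34 and Lif on the 3 arrays of each cancer cell group, with the mean as a line. Il18 lies lower and Il18r1, Il18rap and Il34 higher on all 6 arrays in conditioned medium than on the 3 controls.

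Il33, the nuclear alarm cytokine, was higher in the cancer cells than in either PSC genotype. Cancer control arrays read 1.18, 1.30 and 1.40, PSC WT arrays -1.97, -2.33 and -2.60, and PSC HT arrays -4.21, -4.08 and -3.37. PSC WT was lower than cancer control by -3.59 ± 0.17 (adjusted p = 2.78e-06, 12.0-fold). Within slide 1 this difference was -3.26 and within slide 2 -3.77. PSC HT in turn was lower than PSC WT by -1.59 ± 0.26 (adjusted p = 0.0187, 3.01-fold), with no overlap. The highest HT array was PSC HT 3, the library with the Cdh1 signal, and without it the difference was -1.85 (adjusted p = 0.0106). Within slide 1 it was -1.82 and within slide 2 -1.62. The call was lost without PSC WT 1 (-1.43, adjusted p = 0.059), PSC WT 2 (-1.60, adjusted p = 0.0749) or PSC HT 2 (-1.49, adjusted p = 0.059). It was also lost with the mean of a gene's probes (-1.44, adjusted p = 0.214), without a filter on dim genes (adjusted p = 0.09) and with a replicate block (adjusted p = 0.0614).

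The other Il33 probe, whose 60 bases span 2268 bases of chromosome 19 in mm9, was dim in PSC. It was above background on 1 of 3 WT arrays and 0 of 3 HT arrays, so it gives no firm size for the genotype difference. In the cancer cells it read -3.15 in control, -3.37 in WT medium and -3.65 in HT medium, and the brighter probe 1.29, 0.99 and 1.10. The brighter probe gave -0.30 ± 0.09 for WT medium (adjusted p = 0.112) and -0.19 ± 0.09 for HT medium (adjusted p = 0.314), neither called. Between the 2 media the probes differ in sign (0.11 and -0.28). Between PSC WT and cancer control the dimmer probe gave -2.69. It passed the filter there through the cancer cells alone, so no p-value is given.

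Il1rl1, the IL-33 receptor chain also called ST2, was at least 4.53-fold higher in PSC WT than in cancer control. It was well above background on all 6 PSC arrays and on 0 of 3 cancer control arrays. In WT medium it was above background on all 3 arrays, at -5.05, -5.48 and -4.98, and in HT medium on none, at -7.36, -5.26 and -5.74, so the readings of the 2 media overlapped. The difference between WT medium and control was 1.31 ± 0.50 and was not called (adjusted p = 0.186). It is named here because of these values.

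Il1rn, the gene of the IL-1 receptor antagonist, was higher in PSC HT, with a wide scatter there. In PSC WT it read -5.26, -5.16 and -5.22 and PSC HT arrays -1.66, -3.61 and -2.74. All 3 HT arrays lay above WT, by 2.54 ± 0.45 (adjusted p = 0.0239, 5.82-fold), and they spread over 1.95 log2 units themselves. The PSC WT level of -5.21 lies close to the dimmest signals still well above background (-5.72), and the size of the difference depended on how background was handled. It was 1.36 with normexp, another background correction, (adjusted p = 0.0294) and 1.34 with the authors' matrix (adjusted p = 0.0279). PSC HT 1, the highest for Il1rn, also had the highest summed macrophage level (190.4, against 77.5 and 77.0 for PSC HT 2 and 3). Without PSC HT 3 the difference was 2.57 (adjusted p = 0.0679), and the call was also lost without PSC WT 1 (2.52, adjusted p = 0.0781), PSC WT 2 (2.57, adjusted p = 0.0888) or PSC WT 3 (2.54, adjusted p = 0.0927). A fit without a filter on dim genes ended the call too (adjusted p = 0.105). Within slide 1 the difference was 3.06 and within slide 2 1.58. The other Il1rn probe was above background on 0 of 3 WT and 1 of 3 HT arrays.

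**Figure D3:**
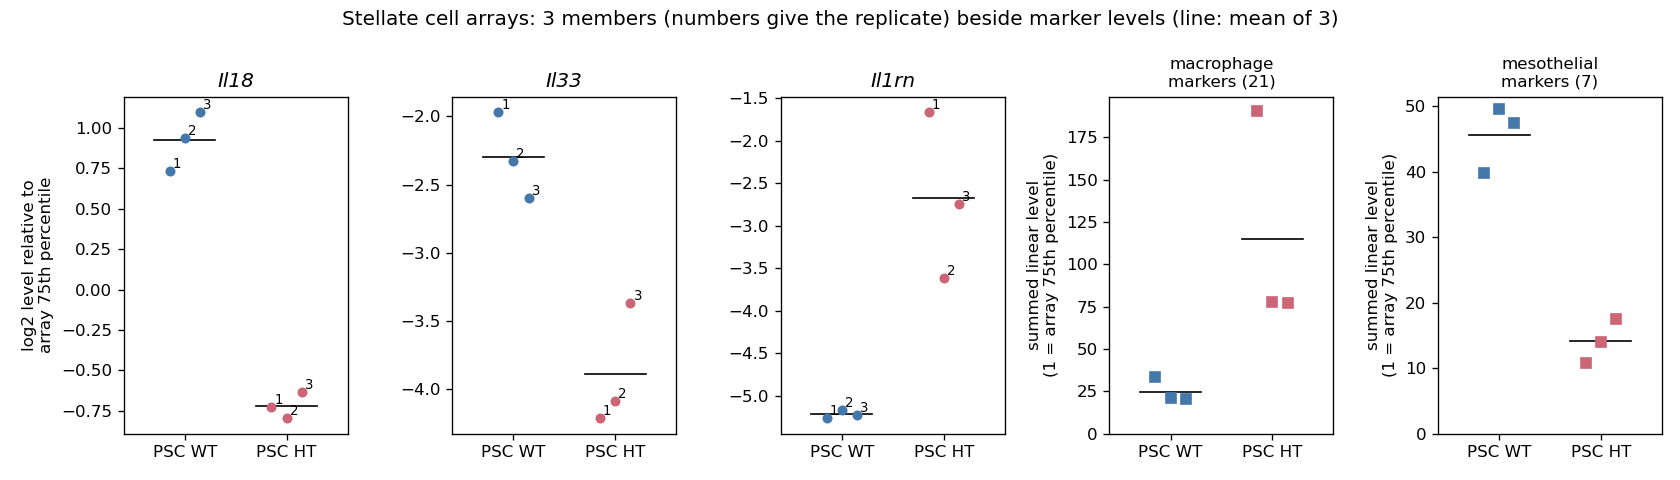
The 6 PSC arrays, with replicate numbers. The left 3 panels show log2 levels of Il18, Il33 and Il1rn relative to the 75th percentile, and the right panels the summed linear level of 21 macrophage and 7 mesothelial markers. Lines are means of 3. PSC HT 1 is highest for both Il1rn and macrophage markers, and Il18, Il33 and mesothelial markers are lower on all 3 HT arrays.

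In cancer cells Il1rn was a strong transcript. Control arrays read 2.52, 2.77 and 2.92, WT medium arrays 2.49, 2.30 and 2.40, and HT medium arrays 2.68, 2.62 and 2.73. PSC WT lay below cancer control by -7.95 ± 0.12 (adjusted p = 2.11e-08, 248-fold). With normexp this was -6.29. By the dimmer probe, not above background in PSC WT, PSC WT was at least 22.9-fold lower. The difference between WT medium and control, -0.34 ± 0.10, was not called (adjusted p = 0.106), although the 2 groups did not overlap. Without cancer control 1 it was -0.45 (adjusted p = 0.0368), and 1 other setting also called it (adjusted p = 0.0462). With HT medium it was -0.06 ± 0.10 (adjusted p = 0.827). The dimmer probe, above background on all of these arrays, gave -0.59 with WT medium and -0.11 with HT medium.

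Of the agonists that the antagonist blocks, Il1b was not detected and Il1a was dim where it was read. Il1b, the main inflammasome product, was above background on 0 of 15 arrays with each of its 3 probes, PSC arrays rich in macrophage markers included. Il1a was above background on 9 of 15 arrays. In the PSC it was above background only on PSC WT 3, which read -3.78, while the other 5 PSC arrays read -8.33 to -7.05. Cancer control arrays read -5.53, -5.47 and -5.21, and WT medium arrays -5.23, -5.52 and -5.41, the last not above background. HT medium arrays read -4.79, -5.08 and -4.60. HT medium lay above control on every array, by 0.58 ± 0.14, short of the threshold (adjusted p = 0.052). The value was 0.18 with normexp (adjusted p = 0.206) and 0.21 with the authors' matrix (adjusted p = 0.176). On leaving out 1 array it ran from 0.47 to 0.71 (adjusted p = 0.035 to 0.158), and was called without cancer control 3 (0.68, adjusted p = 0.0498) or cancer HT medium 2 (0.71, adjusted p = 0.035). Blocks for slide and for replicate number also brought a call (adjusted p = 0.021 and 0.0428), while the remaining settings did not (adjusted p = 0.052 to 0.811). WT medium gave 0.01 ± 0.14 (adjusted p = 0.964). For PSC WT against cancer control the value rests on PSC WT 3: -1.26 (adjusted p = 0.352) with it and -2.71 without it, where no PSC WT array was above background. With normexp it was -0.05.

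Of 14 receptors, adaptors and decoys tested, only Il1r2, a decoy receptor that binds IL-1 without signalling, was called. It read -4.31, -3.84 and -3.73 in WT and -3.10, -2.94 and -2.83 in HT, and rose by 1.00 ± 0.17 (adjusted p = 0.0195), or 0.94 and not called without PSC HT 3 (adjusted p = 0.0635). The median of the 14 was 0.09, against 0.00 for all genes. Il1r1 had -0.16 ± 0.09 (adjusted p = 0.397). Of 11 genes of maturation and release, only Naip2, a sensor that activates an inflammasome, was called, with 1.97 ± 0.26 (adjusted p = 0.00873), and 2.10 without PSC HT 3 (adjusted p = 0.0231). Their median was 0.04. Casp1, the gene of caspase-1, had 1.32 ± 0.33 and was not called (adjusted p = 0.0658). Macrophages express Naip2 and Casp1, and macrophage markers were higher on the same arrays. The part of macrophages in the differences of these 2 genes was not tested.

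In the cancer cells 3 of 13 receptor genes rose with each medium and 0 fell: both IL-18 receptor chains and Sigirr, an inhibitory receptor of the family (0.33 ± 0.08 with each medium, adjusted p = 0.0484 and 0.0494). The median of the 13 was 0.04 with WT medium and 0.12 with HT medium, against 0.03 and 0.01 for all genes. Of 11 maturation genes, Gsdme, a pore-forming gasdermin, fell with both media (-0.41 ± 0.07, adjusted p = 0.0105, and -0.37 ± 0.07, adjusted p = 0.0193). Casp4, the caspase that senses cytosolic lipopolysaccharide, fell with WT medium (-0.41 ± 0.08, adjusted p = 0.0238). The medians of the 11 were -0.07 and -0.11.

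Between the cell types, 9 of 16 receptor genes were higher in PSC WT and 3 lower, where 36.1% and 35.2% of all genes were. Il1rl2, the IL-36 receptor, was at least 51.1-fold higher in PSC WT, and Il1rap, the shared accessory chain, was higher by 6.28 ± 0.17 with 1 of 3 cancer arrays above background. Sigirr was lower by -7.30 ± 0.20 (adjusted p = 2.18e-07) and Il18r1 by -5.24 ± 0.14, with 1 of 3 PSC WT arrays above background. Il1rl2, Il1rap and Il18r1 passed the filter through 1 cell type alone, so no p-value is given for them. The sizes for Il1rap and Il18r1 are not firm. The counts between the cell types, and the shares of all genes, include genes of this kind. Of 13 maturation genes 4 were higher and 8 lower, against the same shares of all genes. The inflammasome sensors Aim2 and Nlrc4 were at least 66.2-fold and 47.5-fold lower in PSC WT, and Naip2 was lower by -5.04 ± 0.12. P2rx7, the ATP receptor that triggers IL-1 release, was higher by 5.60 ± 0.57 with 1 of 3 cancer arrays above background. The medians were 0.53 for the receptors and -0.42 for the maturation genes, against 0.04 for all genes. Il18 itself was present in both cell types, while Casp1 was above background on 0 of 3 cancer control arrays and at least 6.14-fold higher in PSC WT. Macrophage markers were above background in PSC WT too (18 to 19 of 21), while 12 of 21 never were in cancer control. Their part in the differences of Casp1 and other listed genes between the cell types was not tested.

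Il6 was read in the stellate cells and not in the cancer cells. Its PSC WT arrays read 2.21, 2.41 and 2.39 and PSC HT arrays 3.06, 2.79 and 2.90, while all 9 cancer cell arrays read -8.06 to -7.54 and were not above background. Il6 passed the filter against cancer control through PSC WT alone, so no p-value is given for that difference. PSC WT was at least 237-fold higher than cancer control by the brighter probe and at least 91.0-fold by the other. With normexp the difference of the brighter probe was 6.48, a smaller fold than that bound. Neither conditioned medium brought Il6 above background. Between the PSC genotypes the groups did not overlap, and HT was higher by 0.58 ± 0.10 (adjusted p = 0.0232, 1.496-fold) with the brighter probe and by 0.73 with the other. The rise was 0.77 within slide 1 and 0.39 within slide 2. Without PSC HT 3 it was 0.59 (adjusted p = 0.0697). It was also not called without PSC WT 1 (0.52, adjusted p = 0.0579), PSC WT 2 (0.62, adjusted p = 0.0721), PSC WT 3 (0.61, adjusted p = 0.0843) or PSC HT 1 (0.51, adjusted p = 0.0547). The call was lost without a filter on dim genes (adjusted p = 0.119) and with a replicate block (adjusted p = 0.0812) too.

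Il11, a cytokine linked to fibrosis, followed the same order at lower contrast. In PSC WT it read -0.73, -0.99 and -1.22 and PSC HT arrays -0.40, -0.38 and -0.44. The HT arrays lay above all WT arrays and close together, with a difference of 0.57 ± 0.13 at the edge of the threshold (adjusted p = 0.0485, 1.49-fold). Within slide 1 it was 0.31 and within slide 2 0.72. The call was lost with slide as a block (0.52, adjusted p = 0.0821), with median scaling (0.61, adjusted p = 0.0808) and with quantile scaling (0.58, adjusted p = 0.0545). It was also lost without a filter on dim genes (adjusted p = 0.189), with the mean of a gene's probes (adjusted p = 0.0631) and with a replicate block (adjusted p = 0.0771). Il11 was called without PSC WT 1 (0.70, adjusted p = 0.0248). The call was lost without PSC WT 2 (0.57, adjusted p = 0.147), PSC WT 3 (0.46, adjusted p = 0.119), PSC HT 1 (0.57, adjusted p = 0.121), PSC HT 2 (0.56, adjusted p = 0.124) or PSC HT 3 (0.59, adjusted p = 0.118). Cancer control arrays read -2.86, -2.73 and -3.17, and PSC WT was higher by 1.94 ± 0.17 (adjusted p = 5.8e-05, 3.83-fold). The media gave -0.07 ± 0.12 and 0.18 ± 0.12 (adjusted p = 0.79 and 0.484).

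Lif, the leukaemia inhibitory factor, was read in both cell types. PSC WT arrays read -2.78, -2.90 and -3.04, PSC HT arrays -3.34, -3.30 and -3.16, and cancer control arrays -3.40, -3.73 and -4.02. The control arrays scattered most, with an SD of 0.31 against 0.09 to 0.13 in the other groups. PSC WT exceeded control by 0.81 ± 0.17 (adjusted p = 0.00469, 1.75-fold), and with median scaling by 0.42 (adjusted p = 0.0516). In WT medium the cancer cells read -3.20, -3.33 and -3.17 and in HT medium -3.06, -3.03 and -2.88. Both groups lay above all controls. The rise with HT medium, 0.73 ± 0.14, was called (adjusted p = 0.0232, 1.66-fold), and that with WT medium, 0.49 ± 0.14, was not (adjusted p = 0.0931).

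The Lif calls depended on which arrays were used. With HT medium it was 0.75 within slide 1 and 0.70 within slide 2. It was not called without cancer control 2 (0.72, adjusted p = 0.0698), or without cancer HT medium 1 (0.76, adjusted p = 0.0711), 2 (0.75, adjusted p = 0.0653) or 3 (0.68, adjusted p = 0.0856). With WT medium it was called without cancer control 1 (0.64, adjusted p = 0.0234). The media themselves differed by 0.24 with a 95% interval of -0.08 to 0.57 (adjusted p = 0.984), so a difference between them is not shown. In the PSC, HT was lower by -0.36 ± 0.10 on non-overlapping arrays and not called (adjusted p = 0.082). Without PSC HT 3 it was -0.41 (adjusted p = 0.114).

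Of 20 gp130 receptors, relatives and signalling genes tested between the PSC genotypes, 3 rose and 1 fell, with a median of 0.11. Cntfr, the ciliary neurotrophic factor receptor (0.58 ± 0.13, adjusted p = 0.0434), the kinase Jak2 (0.44 ± 0.09, adjusted p = 0.0346) and Osmr, the oncostatin M receptor (0.33 ± 0.07, adjusted p = 0.0386), rose. Ctf1, which encodes cardiotrophin 1, another gp130 ligand, fell by 0.76 ± 0.08 (adjusted p = 0.00402). Without PSC HT 3 the values were 0.54, 0.50, 0.31 and -0.79, of which Ctf1 alone was called (adjusted p = 0.0139, and 0.0537 to 0.128 for the others). The shared chain Il6st had 0.19 ± 0.08 (adjusted p = 0.241). In the cancer cells 0 of 20 were called with WT medium and 1 with HT medium, Il6ra, the IL-6 receptor chain (-0.39 ± 0.09, adjusted p = 0.0359), with -0.28 ± 0.09 for WT medium (adjusted p = 0.104). The medians were -0.05 and -0.08. Lifr, the LIF receptor chain, had -0.31 ± 0.08 with WT medium (adjusted p = 0.0658) and -0.12 ± 0.08 with HT medium (adjusted p = 0.489).

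Against cancer control, 11 of 21 gp130 genes were higher in PSC WT and 5 lower, where 36.1% and 35.2% of all genes were, with a median of 0.40. Osmr was higher by 5.24 ± 0.11 (adjusted p = 8.18e-08). Cntfr was at least 6.61-fold higher. Il6st was higher by 2.82 ± 0.11 and Il6ra by 2.06 ± 0.10, so both chains of the IL-6 receptor were read in the PSC cultures that also read Il6. Bulk RNA cannot tell whether the same cells made them. Both chains were well above background in the cancer cells too.

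Csf1, the macrophage colony-stimulating factor, was high in stellate cells of both genotypes. PSC WT arrays read 6.23, 5.94 and 6.05 and PSC HT arrays 6.32, 6.04 and 5.93, overlapping, with a difference of 0.02 and a 95% interval of -0.29 to 0.33 (adjusted p = 0.957). The other 2 probes gave 0.15 and 0.13, and without PSC HT 3 the difference was 0.10 (adjusted p = 0.783). Cancer control arrays read 0.34, 0.07 and 0.13, and PSC WT was higher by 5.89 ± 0.12 (adjusted p = 5.5e-08, 59.4-fold), or by 6.84 and 6.91 with the other probes. WT medium gave -0.02 and HT medium 0.10 (adjusted p = 0.929 and 0.585), with 95% intervals of -0.21 to 0.17 and -0.09 to 0.29.

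Il34, the second ligand of CSF1R, had the opposite distribution and responded to conditioned medium. Cancer control arrays read -0.35, -0.39 and -0.50, WT medium arrays 0.17, 0.22 and 0.29, and HT medium arrays 0.40, 0.20 and 0.32. All 6 arrays in conditioned medium lay above all controls. Il34 rose by 0.64 ± 0.07 with WT medium (adjusted p = 0.00188, 1.56-fold) and by 0.72 ± 0.07 with HT medium (adjusted p = 0.00161, 1.65-fold). The dimmer probe gave 0.69 and 0.61. Within slide 1 the rises were 0.60 and 0.79, and within slide 2 0.64 and 0.59. Both were called on leaving out any 1 of the 9 arrays (adjusted p = 0.0027 to 0.0125 and 0.00412 to 0.00961). The media differed by 0.08, with a 95% interval of -0.09 to 0.25.

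PSC expressed less Il34 than the cancer cells. In PSC WT it read -1.47, -1.62 and -1.62 and PSC HT arrays -1.85, -1.67 and -1.57. PSC WT lay below cancer control by -1.16 ± 0.09 (adjusted p = 3.54e-05, 2.23-fold), and by -0.94 with the dimmer probe. The PSC genotypes overlapped (-0.13 ± 0.10, adjusted p = 0.529, and -0.19, adjusted p = 0.418, without PSC HT 3).

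Among the receptors for these ligands, Csf1r was higher in the heterozygous PSC by 1.24 ± 0.26 (adjusted p = 0.0399), or 1.42 and not called without PSC HT 3 (adjusted p = 0.0534). It is a macrophage marker as well, and the macrophage markers rose on the same arrays. The part of macrophages in the difference of Csf1r was not tested. Csf1r was also well above background on all arrays of every cancer cell group, and higher in PSC WT than in cancer control by 1.40 ± 0.19 (adjusted p = 0.000613). Of 10 genes of its list tested in the PSC, 2 rose and 1 fell, with a median of 0.11. Csf2rb2, a signalling chain for IL-3, rose by 2.49 ± 0.49 (adjusted p = 0.0325) and Kitl, the stem cell factor, fell by 0.83 ± 0.08 (adjusted p = 0.00334). Without PSC HT 3 these were 2.82 (adjusted p = 0.0452) and -0.77 (adjusted p = 0.0129). Kitl also fell in the cancer cells, by 0.45 ± 0.07 with WT medium (adjusted p = 0.00645) and 0.29 ± 0.07 with HT medium (adjusted p = 0.0472), the only call among 9 genes with either medium. The medians were 0.10 and -0.06. Ptprz1, a phosphatase receptor that also binds IL-34, was at least 574-fold higher in PSC WT than in cancer control, where it was not above background. Of 11 such genes, 4 were higher in PSC WT and 4 lower, where 36.1% and 35.2% of all genes were, with a median of 0.12. Kitl was lower by -2.91 ± 0.08, Csf2, the granulocyte-macrophage factor, was at least 6.07-fold lower and Csf2rb2 at least 1.94-fold higher.

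**Figure D4:**
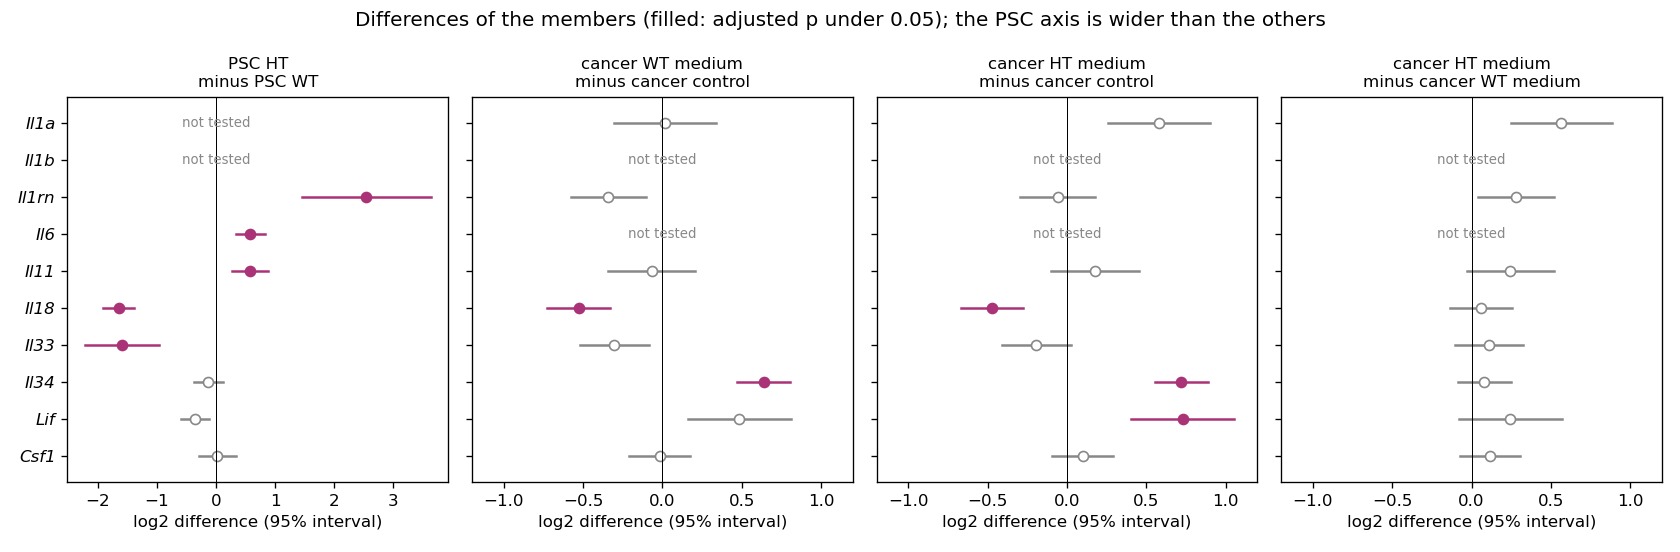
Log2 differences (horizontal axis) with 95% intervals for the members in 4 comparisons, one panel each, with filled points for an adjusted p under 0.05. Members below background are marked as not tested, and the PSC panel has a wider axis. Il18 lies below 0 in 3 panels, Il34 above 0 with both media, and no member is filled between the media.

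The 2 media were compared directly to ask whether the PSC genotype altered the cancer cells' cytokines. No member was called. Il1a differed by 0.57 with a 95% interval of 0.25 to 0.89 (adjusted p = 0.876) and Il1rn by 0.28 with an interval of 0.04 to 0.52 (adjusted p = 0.984). The other 6 members tested differed by 0.06 to 0.24. These intervals are unadjusted.

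Few other interleukin genes were expressed. Of 33 further family and interleukin ligands on the array, 8 were above background on all PSC WT arrays, 6 on all PSC HT arrays and 6 on all cancer control arrays. Between the PSC genotypes 1 of 9 tested was called: Il16, a T-cell chemoattractant, fell by 1.19 ± 0.10 (adjusted p = 0.00172), and by 1.26 without PSC HT 3 (adjusted p = 0.00496). In the cancer cells Il15, a growth factor of natural killer and T cells, fell by 0.32 ± 0.06 with WT medium (adjusted p = 0.0173) and 0.28 ± 0.06 with HT medium (adjusted p = 0.0344), as 1 of 7. The medians were -0.11, 0.08 and -0.15. Against cancer control, 5 of 9 were higher in PSC WT and 1 lower, where 36.1% and 35.2% of all genes were, with a median of 0.59. Il16 was higher by 3.60 ± 0.26 with 2 of 3 cancer arrays above background, Tslp, an epithelial alarm cytokine, by 1.88 ± 0.25 and Ifnl3, an interferon lambda, by 0.77 ± 0.20, and Il15 was lower by -1.90 ± 0.10.

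Over the 5 groups, Il6, Csf1 and Il11 were highest in PSC HT and then PSC WT, where the genotypes' arrays overlapped for Csf1 and did not for Il6 and Il11, and the 3 cancer groups overlapped with their neighbours. Il1rn and Il33 ran from the cancer groups through 1 PSC genotype to the other, PSC HT before PSC WT for Il1rn and the reverse for Il33. Il34 ran from HT medium and WT medium, which overlapped, to cancer control and then to PSC WT and PSC HT, which overlapped. Il18 was highest in PSC WT and cancer control, which overlapped, followed by both media, and lowest in PSC HT. Il1a was highest in HT medium, which did not overlap with WT medium, and the groups after it overlapped with their neighbours. Lif ran from PSC WT and HT medium, which overlapped, to WT medium and PSC HT, which overlapped, and then to control. The PSC HT and cancer arrays were not tested against each other.

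The genes whose 15 values followed a member most closely were found among 14798 named genes, as a description that mostly reflects the separation of the cell types. Their Pearson correlations were 0.9996 for Fyb2 and Alkal1 with Il6, 0.999 for Tgfb2 and Ifi27 with Csf1, and 0.998 for Lonrf3 and Padi2 with Il1rn. Prelid3a (0.997) and Chn2 (0.996) followed Il33, Map3k6 (0.994) and Riok3 (0.992) Il11, and Dnttip1 and Arl4c (0.991 each) Il34. For Il18, which did not follow the cell type, they were Smpd3 and Atp1b1 (0.959 each). For Il1a they were Krt36 (0.959) and Cysrt1 (0.913), and for Lif Chac1 (0.872) and Cnpy2 (0.851).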

How the data were processed

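RNA of 15 samples was read on 1-colour Agilent arrays. Per the file headers, the authors' scanner files were made with Agilent Feature Extraction 10.7.3.1, which gave each spot a background-subtracted and detrended intensity with no scaling between arrays. For the authors' deposited matrix of log2 values, the preparation is not given in the sources used here. It entered one alternative, for differences inside one cell type. Per the labels, labelling went through double-stranded cDNA, so reads of a gene and an antisense partner may not be told apart. The 75th percentile of the signal was 913 to 1449, 54.3% to 63.8% of spots were well above background and 0 were saturated. Depth has no meaning for arrays: precision is limited by 3 arrays per group.

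Log2 of the processed signal minus the array's 75th percentile was used, control and outlier spots were left out, and the brightest probe by mean over 15 arrays stood for a gene. Testing required that every array of some group in the fit read the gene well above background. limma 3.58.1 in R 4.3.3 fitted the PSC arrays, the cancer cell arrays and PSC WT with cancer control separately, with Benjamini-Hochberg adjustment. The procedure was tested on simulated data. A fold given as a lower bound belongs to a group with 0 such arrays and sets the bright group's mean against the higher of each dim array's lowest well-above-background signal and its own reading. Such a bound holds for the processed signal only. With normexp the fold of Il6 was smaller than its bound, and the other bounds are not given with normexp. Arrays lay on 2 slides, each with arrays of every group. Slide 1 held replicate 1 of PSC WT and WT medium, and replicates 1 and 3 of PSC HT, cancer control and HT medium. Slide 2 held the other arrays. Most within-slide differences therefore rest on 1 array of at least 1 group, and they were not tested. Probes are placed in the files on mm9, whose annotation was not used here, so their exons are not named. Gene names were updated through RefSeq (32994 probes by accession, 10224 by symbol, 520 by synonym, with 12867 keeping the file's name). Named genes are the members, up to 4 called genes per list and comparison with the largest differences, a few receptors of the members, and the 2 genes closest to each member over the arrays. Some genes this rule names are not reported here. The members and lists were chosen with earlier results of these data known. Replicate numbers are shared between groups: deviations of same-numbered arrays correlated at 0.22, 0.31 and 0.26 between cancer control and WT medium. This passes a rule of every r over 0.1, which the other comparisons did not. Differently numbered arrays reached as much: 0.224 for control 1 with WT medium 2, 0.219 for 2 with 3 and 0.254 for 3 with 1. The reverse combinations gave -0.46, -0.51 and -0.51. A shifted numbering would pass the same rule, so a pairing is not shown. For WT medium against control a replicate block changed no call of a member. Alternatives covered background correction, scaling, the filter, the probe rule, slide and replicate blocks, variance settings, the threshold and leaving out each array.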

Additional observations from a re-analysis of the deposited data

How the results depend on the processing

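Members called in the main setting kept their direction under every alternative run, and the number called moved as follows. Between PSC genotypes, 5 were called. Without a filter on dim genes 1 was, with the mean of a gene's probes 3, with the second brightest probe 3, at an adjusted p under 0.01 1, and on leaving out 1 array 1 to 3. The replicate numbers did not pair the PSC arrays (r of 0.24, 0.06 and -0.10), and with a replicate block 2 were called (Il18 and Il1rn). With WT medium 2 were called, 1 with median scaling and 2 to 4 on leaving out 1 array. With HT medium 3 were called, 1 without a filter, 1 at 0.01 and 1 to 4 on leaving out 1 array, and a replicate block added Il1a (adjusted p = 0.0428). Between media 0 were called in any setting, and between cell types 6 to 8. Signs turned only for differences that were not called. For Csf1 between PSC genotypes the value was -0.011 with quantile scaling, -0.033 with slide as a block, -0.00063 with the authors' matrix and -0.091 to 0.10 on leaving out 1 array. For Csf1 with WT medium it was 0.035 with median scaling, 0.088 with the mean of probes, 0.15 with the second probe, 0.027 with slide as a block and -0.070 to 0.061 on leaving out 1 array. Between media, the mean of probes and the second probe gave -0.084 and -0.28 for Il33 and -0.0018 and -0.085 for Il34. Il18 between cell types was -0.34 with median scaling, -0.028 with slide as a block and -0.042 to 0.14 on leaving out 1 array. Il1rn with HT medium was 0.00020 with median scaling and -0.17 to 0.033 on leaving out 1 array. That range was -0.063 to 0.11 for Il1a and -0.19 to 0.026 for Il11 with WT medium, and -0.0095 to 0.12 for Il18 between media. Of all genes, 1615 were called between PSC genotypes, 401 without a filter and 2459 with all 15 arrays in 1 fit. WT medium had 1173, and 638 with median scaling, 467 without a filter and 770 with the mean of probes. HT medium had 1077, and 535, 334 and 674. Between media 0 became 1 with normexp, median scaling, the trended robust fit or all 15 arrays. On leaving out 1 array the gene counts ran from 552 to 1280 between PSC genotypes, 577 to 1102 with WT medium, 496 to 871 with HT medium and 0 to 6 between media. Between PSC genotypes they moved by over 1.5 times without PSC WT 2 (634), PSC WT 3 (552), PSC HT 2 (935) or PSC HT 3 (945). With WT medium this held without cancer control 1 (736) or cancer WT medium 1, 2 or 3 (730, 687 and 577). With HT medium it held without cancer control 1 or 2 (539 and 591) or cancer HT medium 1, 2 or 3 (496, 647 and 552). The number of arrays limits precision, and the cause of these changes was not tested.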
